A study of Mus musculus with 36 samples.

Results

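RNA-seq of mouse brain was compared here between the wild-type (WT) libraries labelled Nac and the WT libraries labelled VTA. The members were the libraries that the labels give as WT with the region Nac (3) or VTA (3), 6 of the 36 in the series. The study took 6 brain regions, labelled VTA, SN, STR, Nac, PFc and HP, from adult C57 mice aged 6 to 7 weeks, of a WT and a KI genotype, with 3 libraries of each region and genotype. KI is not spelled out, and the series title names a synonymous change in Maoa, the gene of monoamine oxidase A. The region labels are abbreviations too: Nac and VTA were read as nucleus accumbens and ventral tegmental area, STR as striatum and SN as substantia nigra, to choose marker genes. Separate animals are not named for the libraries of a group, so a p-value covers the spread among the libraries at hand and may be technical in part or whole. No treatment is given, and all 6 libraries share the strain, the age range and the library kit. Libraries are named by region and by the number in their title (Nac 1 to 3, VTA 1 to 3).

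The nucleus accumbens is the ventral part of the striatum. Most of its neurons are GABA-releasing spiny projection neurons, which carry either D1 dopamine receptors with the peptides dynorphin and substance P (direct pathway) or D2 dopamine and adenosine receptors with enkephalin (indirect pathway). The ventral tegmental area, in the ventral midbrain, holds dopamine neurons whose axons end in the accumbens, beside GABA and glutamate neurons. The dopamine neurons themselves make the enzymes and transporters of dopamine, so in the accumbens the proteins are present in axons while the messenger RNAs stay mostly in the midbrain.

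Nac 2 and VTA 3 went against their labels. Ppp1r1b, which encodes DARPP-32, the dopamine-regulated phosphatase inhibitor of striatal projection neurons, stood at 1166, 39.0 and 1149 CPM (read counts put on a common scale of library size) in Nac 1, 2 and 3, against 61.3, 48.7 and 1168 CPM in VTA 1, 2 and 3. Slc6a3, the dopamine transporter of midbrain dopamine neurons, stood at 0.450, 184 and 0.455 CPM in Nac, against 556, 228 and 0.571 CPM in VTA. Nac 2 thus lay with VTA 1 and 2 in both genes, and VTA 3 lay with Nac 1 and 3. The same held across marker lists: the mean log2(CPM + 0.5) over the 20 genes shared by striatal projection neurons of both pathways was 8.27, 5.44 and 8.34 in Nac, against 5.44, 5.47 and 8.27 in VTA, and that over 18 dopamine neuron genes was 1.78, 4.98 and 1.68 in Nac, against 6.03, 5.24 and 1.56 in VTA.

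The comparison over all genes is therefore given as labelled (3 libraries against 3) and without Nac 2 and VTA 3 (Nac 1 and 3 against VTA 1 and 2), and gene lists are given by their counts and medians in both. It is also described with these 2 libraries exchanged, so that VTA 3 counts with Nac 1 and 3 and Nac 2 counts with VTA 1 and 2. The exchange rests on expression and on no label, so it is a description with no test. The 2 libraries were left out for the same reason, so every call, SE and adjusted p without them is also a description of the 4 libraries that remain. This holds most for region markers, by which the 2 were picked, and reaches any gene that differs with region. All log2 fold changes are Nac over VTA. Total estimated counts ran from 17275279 to 17720515 in the 6 libraries, and no pair of them agreed closely enough to be the same library deposited again.

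**Figure D1:**
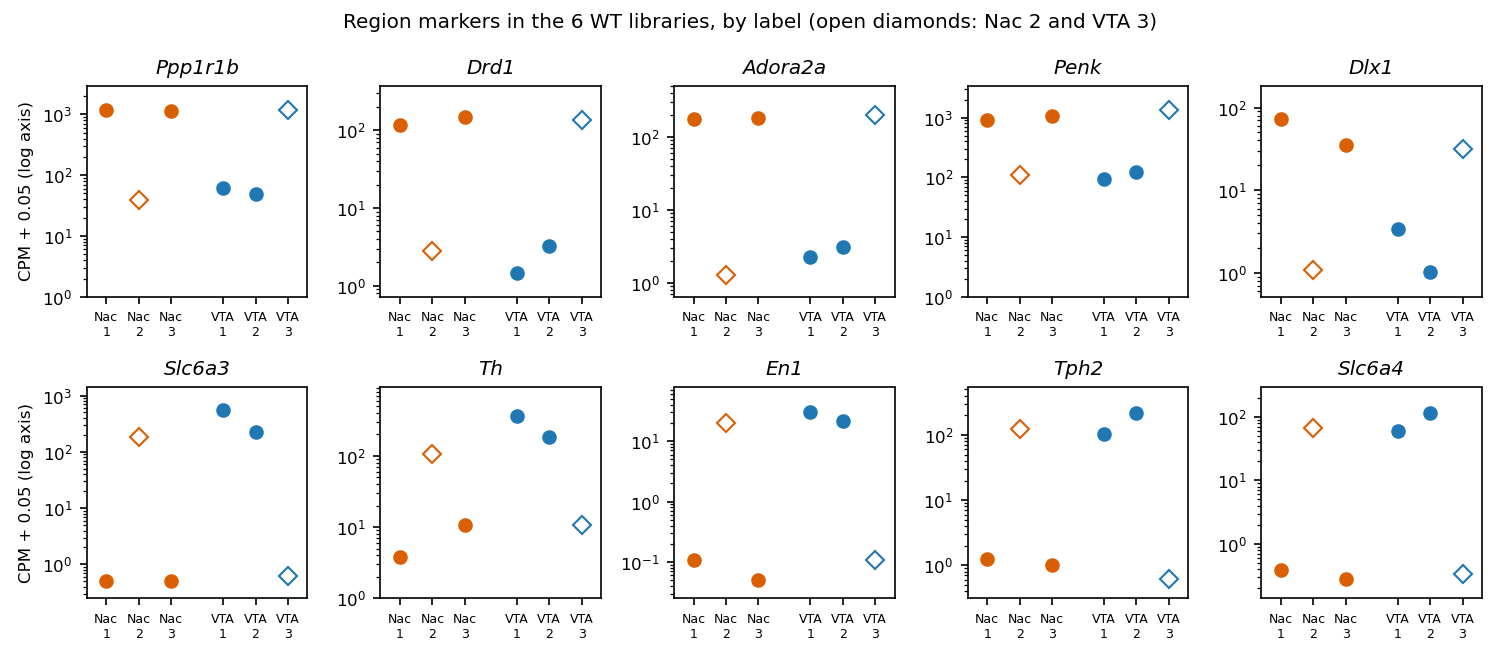
CPM plus 0.05 (log axis) of 5 genes of striatal neurons or forebrain and 5 of midbrain or serotonin neurons in the 3 Nac and 3 VTA WT libraries, 1 point a library; open diamonds mark Nac 2 and VTA 3. In every panel Nac 2 sits beside VTA 1 and 2, and VTA 3 beside Nac 1 and 3; for Ppp1r1b, Nac 2 is at 39.0 CPM and VTA 3 at 1168 CPM.

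Likeness across all genes followed the markers for VTA 3. Its log2(CPM + 0.5) values correlated with those of Nac 1 and Nac 3 at Pearson's r of 0.984 and 0.989 across 15094 genes, which are not independent replicates and give no p. Its r was 0.938 with both VTA 1 and VTA 2, and between 0.953 and 0.967 with the STR libraries. A set of 87 genes was at least 4-fold apart between Nac 1 and 3 and the STR libraries. VTA 3 lay nearer to Nac 1 and 3 in 85 of them, and in 303 of 337 genes at least 2-fold apart. The STR libraries also stood higher on the choroid plexus and ependyma list, at 6.5, 7.2 and 6.7 log2(CPM + 0.5). Nac 1, Nac 3 and VTA 3 stood at 3.0, 2.6 and 2.6 on it. The thalamic list was higher in STR too, at 5.3 to 6.5, against 4.1, 3.7 and 3.5. The part of such genes in the 87 was not tested, so the count need not mark accumbens against dorsal striatum.

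Nac 2 was less easily placed. Its r was 0.988 with VTA 1 and 0.985 with VTA 2, against 0.942 with Nac 1 and 0.946 with Nac 3. The highest value of all was 0.991, with the library labelled SN 3, and the other SN libraries gave 0.984 and 0.974. Of 1137 genes at least 2-fold apart between Nac 1 and 3 and VTA 1 and 2, Nac 2 lay nearer to VTA 1 and 2 in 1078. Only 17 genes were 2-fold apart between VTA 1 and 2 and the SN libraries by the same measure. Nac 2 lay nearer to VTA 1 and 2 in 11 of them, and in 3 of the 3 genes 4-fold apart. Ucn, which encodes the stress peptide urocortin and is strong in the Edinger-Westphal nucleus beside the ventral tegmental area, stood at 14.4 CPM in Nac 2, at 17.005 and 35.003 CPM in VTA 1 and 2 and at most 0.446 CPM in the SN libraries. Slc6a5, the glycine transporter of inhibitory neurons of hindbrain and spinal cord, stood at 44.8 CPM in Nac 2, against 13.0 and 19.1 CPM in VTA 1 and 2 and 35.4 to 138 CPM in SN. The exchange with VTA 3 is thus 1 reading of Nac 2, whose values lay close to both the VTA and the SN libraries.

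**Figure D2:**
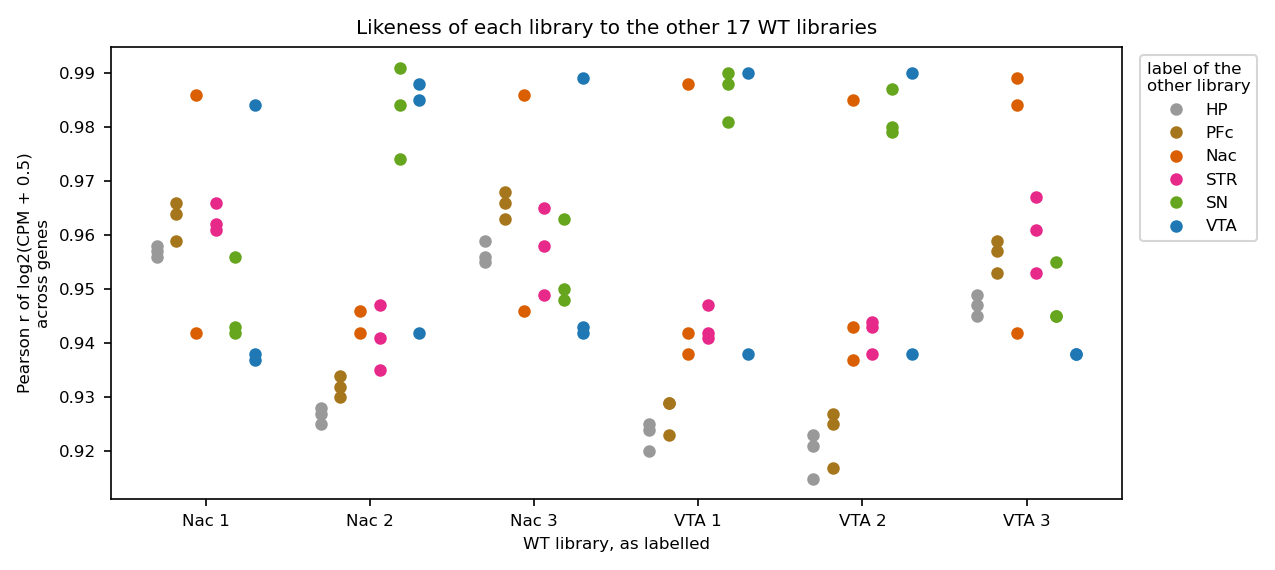
Pearson's r of log2(CPM + 0.5) across genes (vertical axis) between each of the 6 libraries (horizontal axis) and the other 17 WT libraries, coloured by the label of the other library, 1 point a pair. VTA 3 has its 2 highest values with Nac 1 and 3 (0.984 and 0.989), and Nac 2 its highest with SN 3 (0.991).

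As labelled, no gene passed the test between the regions. edgeR's quasi-likelihood test called 0 of 14499 genes at an adjusted p under 0.05 (0%), with a smallest adjusted p of 0.912 and 273 genes at an unadjusted p under 0.05. DESeq2 called 0 of 14473, with 388 at an unadjusted p under 0.05. The authors' deposited table for this pair likewise lists 0 of 17947 genes at a q-value under 0.05, with a smallest q-value of 0.278. Its log2 fold changes run VTA over Nac, opposite in sign to the values given here in 14247 of 14499 genes. The authors' deposited table gives Slc6a3 a log2 fold change of 2.08 in that direction with a q-value of 0.995.

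Without Nac 2 and VTA 3, edgeR called 5237 of 14584 genes (35.9%), 2700 higher in Nac 1 and 3 (18.5%) and 2537 lower (17.4%), and DESeq2 called 4834 (33.1%). The count was 2422 with VTA 1 also left out and 1858 with VTA 2 also left out, each leaving 1 VTA library that is assumed to vary like the Nac libraries. The median size of the log2 fold change over all tested genes was 0.39 without the 2 libraries and 0.19 as labelled. More than a 2-fold difference was seen in 2294 genes without them and in 329 as labelled. The libraries kept were chosen by their expression, so the calls without the 2 describe those libraries and are no independent test of the regions.

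With Nac 2 and VTA 3 exchanged, 7498 of the 14499 genes (51.7%) had no overlap between the 2 sets of 3 libraries, 3716 of them higher on the Nac side (25.6%) and 3782 lower (26.1%). As labelled, 1096 genes (7.56%) had no overlap, 619 higher in Nac (4.27%) and 477 lower (3.29%). The difference of mean log2(CPM + 0.5) passed 1 in size in 1711 genes exchanged (11.8%) and in 228 as labelled (1.57%), and passed 2 in 388 genes exchanged (2.68%) and in 8 as labelled (0.0552%). These are counts for an arrangement chosen from the same values, and carry no p. None of the 28 gene lists had a member called as labelled.

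**Figure D3:**
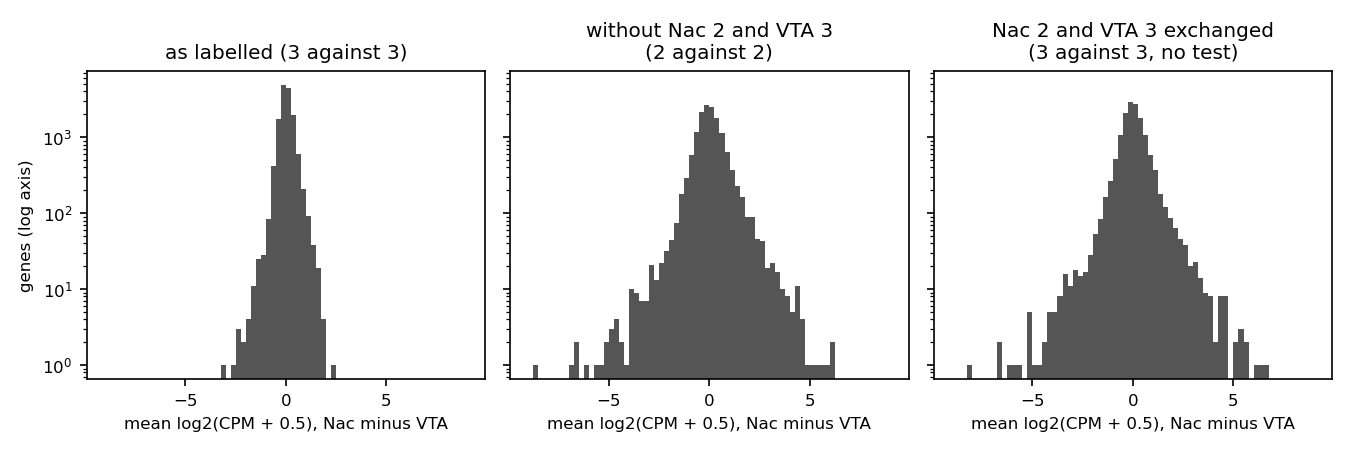
Number of genes (log axis) by difference of mean log2(CPM + 0.5), Nac minus VTA, as labelled (left), without Nac 2 and VTA 3 (middle) and with them exchanged (right), for the genes tested as labelled. The distribution is narrow as labelled, with 8 genes past a difference of 2 in size, and wide with the libraries exchanged, with 388.

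Striatal projection neuron genes were higher in Nac once Nac 2 and VTA 3 were left out. Of the 20 listed genes shared by both pathways, 0 were called as labelled (median log2 fold change 0.64) and 19 were higher without the 2 libraries (median 2.67), against 18.5% of all genes. Ppp1r1b averaged 785 ± 646 CPM in Nac and 426 ± 643 CPM in VTA as labelled (SD, n = 3 each), a log2 fold change of 0.85 with a standard error (SE) of 1.54. Without the 2 libraries its log2 fold change was 4.39. Ppp1r1b is among the genes that set them apart, so no SE or p is given for that value. Exchanged, its means were 1161 ± 10.8 CPM with the Nac libraries and 49.6 ± 11.2 CPM with the VTA libraries. Gng7, a G protein gamma subunit of the striatal dopamine and adenosine receptor pathway, stood at 971, 47.4 and 1189 CPM in Nac, against 62.6, 49.2 and 1235 CPM in VTA. Adcy5, the main adenylyl cyclase of striatum, stood at 799, 138 and 898 CPM in Nac, against 142, 118 and 895 CPM in VTA. Rasgrp2 was the listed gene that was not called, at 70.6, 51.2 and 56.7 CPM in Nac, against 49.4, 60.3 and 53.2 CPM in VTA. In tissue RNA such as this, fewer cells of a type and less RNA per cell cannot be told apart.

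Genes of the direct and the indirect pathway showed the same arrangement. Of 6 direct pathway genes, 5 were higher without the 2 libraries (median 4.04), and of 6 indirect pathway genes, 6 were (median 3.28). Over all genes 18.5% were higher. As labelled the counts were 0 and 0, with medians of 0.97 and 0.52. Drd1, the D1 dopamine receptor, stood at 117, 2.76 and 148 CPM in Nac, against 1.39, 3.19 and 134 CPM in VTA. Its log2 fold change was 0.91 as labelled (SE 1.82) and 5.84 without the 2 libraries. Adora2a, the adenosine receptor of this pathway, stood at 176, 1.25 and 183 CPM in Nac, against 2.20, 3.08 and 200 CPM in VTA. Penk, the enkephalin precursor, stood at 911, 109 and 1079 CPM in Nac, against 94.0, 123 and 1356 CPM in VTA. In these 3 genes the exchanged sets had no overlap, as in 51.7% of all genes, and each labelled set held high and low libraries. Markers of this kind set the 2 libraries apart, so the lack of overlap was built in.

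Drd2, the D2 dopamine receptor, is made both by indirect pathway neurons and by dopamine neurons, where it is the autoreceptor. It stood at 121, 36.3 and 125 CPM in Nac, against 65.3, 40.4 and 141 CPM in VTA, so VTA 1 and 2 kept a sizeable level. Its log2 fold change without the 2 libraries was 1.21 (SE 0.22, adjusted p = 0.0077), the smallest of the named pathway genes, and it was not called with all WT libraries in the fit (adjusted p = 0.171). Among 11 tested genes of dopamine and opioid receptors and their peptides, 6 were higher (Drd1, Drd2, Drd3, Oprm1, Pdyn and Penk) and 1 was lower without the 2 libraries. The shares of all genes were 18.5% and 17.4%. The call for Oprm1, the mu opioid receptor, was lost with Nac 3, VTA 1 or VTA 2 also left out (adjusted p = 0.121, 0.181 and 0.115), with all WT libraries in the fit (0.0503) and with no filter on low counts (0.0630). The lower gene was Oprl1, the nociceptin receptor, at 60.8, 105 and 55.3 CPM in Nac, against 98.6, 95.9 and 51.6 CPM in VTA.

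The 10 listed genes that vary within striatum were mixed, with 5 higher (Nts, Wfs1, Crym, Cnr1 and Coch) and 2 lower (Cartpt and Dlk1). Over all genes 18.5% were higher and 17.4% lower. The calls for Cnr1, Coch and Dlk1 were lost with VTA 1 also left out (adjusted p = 0.0971, 0.120 and 0.146) and with VTA 2 also left out (0.0725, 0.174 and 0.0534), and that for Coch also without Nac 1 (0.116). Coch and Dlk1 were also not called with all WT libraries in the fit (0.198 and 0.168) or with no filter on low counts (0.0523 and 0.0571). Crym, a thyroid hormone binding protein, stood at 156, 1.68 and 251 CPM in Nac, against 10.1, 7.41 and 302 CPM in VTA. Cartpt, the precursor of the CART peptides, is also strong in the Edinger-Westphal nucleus, and stood at 29.7, 234 and 59.0 CPM in Nac, against 275, 491 and 52.8 CPM in VTA. Its log2 fold change without the 2 libraries was -3.12 (SE 0.40, adjusted p = 0.00234).

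Transcription factors that mark forebrain were higher in Nac, and those that mark midbrain and brainstem were lower. Of 12 forebrain factors, 10 were higher without the 2 libraries, against 18.5% of all genes (median log2 fold change 4.75, and 1.02 as labelled). Dlx1, of the homeobox family that sets the GABA neuron fate of the ventral forebrain, stood at 73.1, 1.03 and 35.5 CPM in Nac, against 3.38, 0.974 and 31.2 CPM in VTA. Of 16 midbrain and brainstem factors, 15 were lower, against 17.4% of all genes. Their median was -6.81, or -6.35 with the gene that had no count in Nac 1 and 3 set at its bound, and -1.25 as labelled. That gene passed the count filter only through VTA 1 and 2, so its direction was fixed in advance. En1, which maintains midbrain dopamine neurons, stood at 0.0562, 20.1 and 0 CPM in Nac, against 30.8, 21.8 and 0.0571 CPM in VTA. Foxa1, another factor of these neurons, had no count in Nac 1, Nac 3 or VTA 3, and stood at 6.39 CPM in Nac 2 and at 14.4 and 6.11 CPM in VTA 1 and 2. Against a floor of 3 counts over Nac 1 and 3 together, Foxa1 was at least 121-fold lower in these than in VTA 1 and 2.

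Dopamine neuron genes were lower in Nac 1 and 3 than in VTA 1 and 2 for 17 of 18 (17.4% of all genes), and 0 were called as labelled. The median log2 fold change was -4.64 without the 2 libraries, and the same with the 3 genes at 0 in Nac 1 and 3 set at their bound, and -1.56 as labelled. Those 3 genes passed the count filter only through VTA 1 and 2, so their direction was fixed in advance. Slc6a3 averaged 61.8 ± 106 CPM in Nac and 261 ± 279 CPM in VTA as labelled (SD, n = 3 each). Its log2 fold change was -2.08 as labelled (SE 2.47) and -9.74 without the 2 libraries. No SE or p is given for the second value, since Slc6a3 is among the genes that set those libraries apart. Th, tyrosine hydroxylase, the rate-limiting enzyme of dopamine synthesis, stood at 3.71, 108 and 10.5 CPM in Nac, against 366, 182 and 10.8 CPM in VTA. Slc18a2, which loads monoamines into vesicles, stood at 17.5, 134 and 8.87 CPM in Nac, against 247, 173 and 8.51 CPM in VTA. Nac 2 was below VTA 1 and 2 in all 3 of these genes, and above Nac 1 and 3. Nr4a2, a factor of dopamine neurons that other neurons also make, was the gene not called, at 16.2, 24.7 and 35.6 CPM in Nac, against 35.99, 15.2 and 7.71 CPM in VTA.

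**Figure D4:**
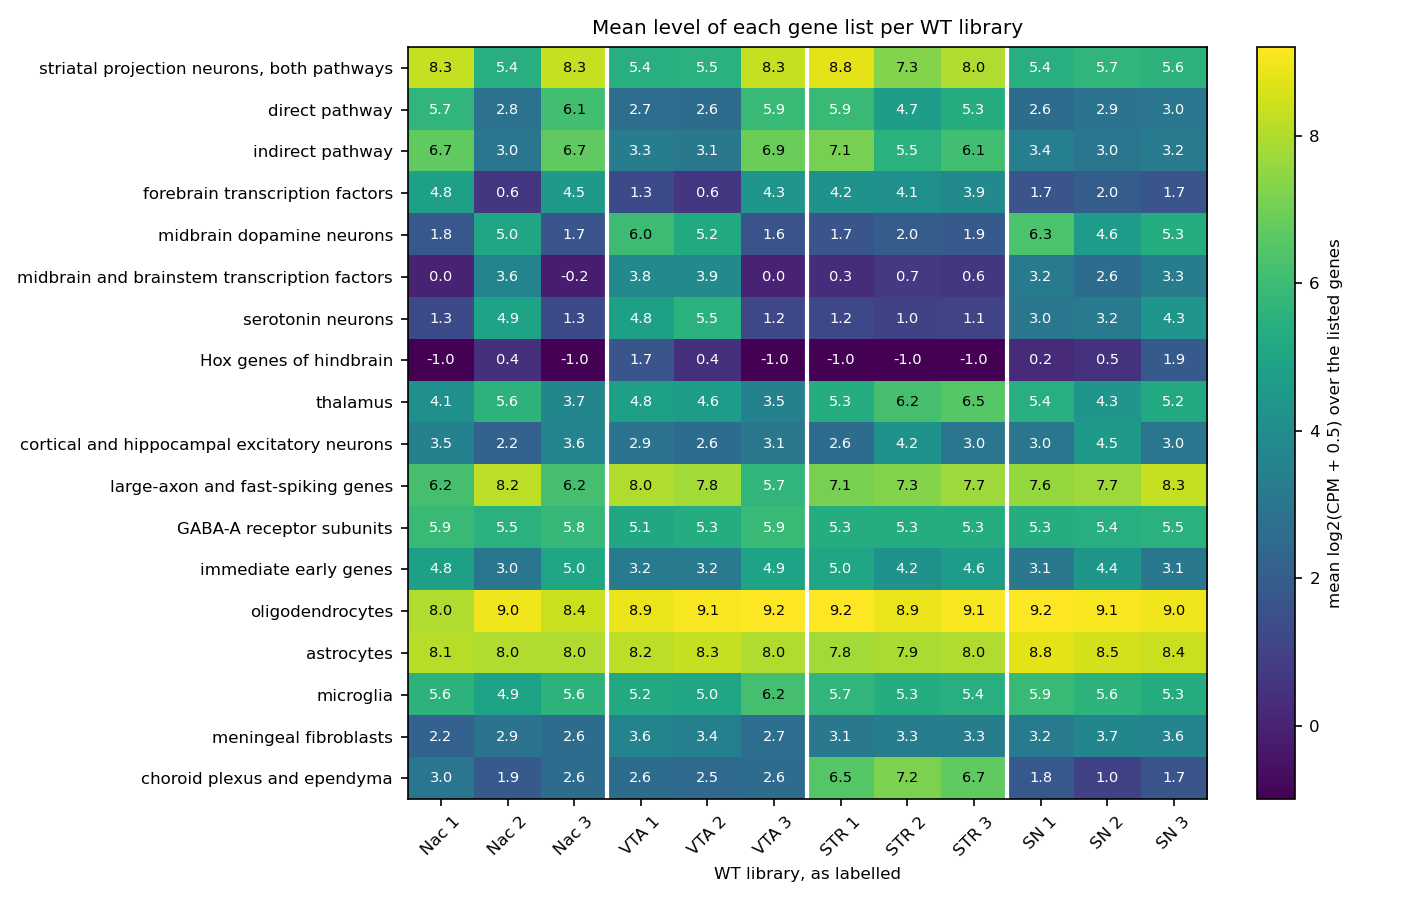
Mean log2(CPM + 0.5) over the genes of 18 lists (rows) in the 3 Nac, 3 VTA, 3 STR and 3 SN WT libraries as labelled (columns); colour and printed numbers give the same value. Nac 2 stands at 5.4 for striatal genes and 5.0 for dopamine genes, and VTA 3 stands at 8.3 and 1.6.

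Genes of serotonin neurons and of hindbrain were lower in Nac with the dopamine genes, and those of other neighbouring cell groups were mixed. Of 6 serotonin neuron genes, 5 were lower in Nac without the 2 libraries (median log2 fold change -6.91, and -1.07 as labelled). Over all genes 17.4% were lower and 18.5% higher, shares that also stand beside the other lists of this paragraph. The mean level of the list was 1.3, 4.9 and 1.3 in Nac, against 4.8, 5.5 and 1.2 in VTA, in log2(CPM + 0.5). Tph2, the brain enzyme of serotonin synthesis, stood at 1.18, 124 and 0.967 CPM in Nac, against 102, 214 and 0.571 CPM in VTA, and at 13.1 to 65.5 CPM in the SN libraries. Slc6a4, the serotonin transporter, stood at 0.337, 67.6 and 0.227 CPM in Nac, against 60.2, 116 and 0.285 CPM in VTA. Both lie far above their levels in Nac 1 and 3 in Nac 2, VTA 1 and VTA 2, and their serotonin neurons are known from the raphe nuclei behind the ventral tegmental area. Of 8 Hox genes, active in hindbrain and behind, 6 were tested without the 2 libraries, each with no count in Nac 1 and 3. All 6 were called lower, but they passed the count filter only through VTA 1 and 2. Their direction was thus fixed in advance. Hoxb3 stood at 1.30 CPM in Nac 2 and at 6.33 and 1.62 CPM in VTA 1 and 2. Of 7 interpeduncular and habenular nicotinic genes, 4 were lower and 0 higher (median -2.19, and -1.21 as labelled). Exchanged, 4 had no overlap on the lower side and 2 on the higher, against 26.1% and 25.6% of all genes. Of 8 tested peptide genes of the Edinger-Westphal nucleus and hypothalamus, 4 were lower and 2 higher (median -0.996, and -0.94 as labelled). The part of these neighbouring cells in the differences between VTA and Nac was not tested.

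Slc6a5 and Tcf7l2 turned direction with the treatment of the 2 libraries. Slc6a5 stood at 0.281, 44.8 and 0.0569 CPM in Nac, against 13.0, 19.1 and 0.114 CPM in VTA. Its log2 fold change was 0.48 as labelled (unadjusted p = 0.819) and -6.51 without Nac 2 and VTA 3 (SE 0.48, adjusted p = 0.000391). Tcf7l2, a Wnt pathway factor strong in thalamus and midbrain roof, stood at 7.59, 111 and 11.4 CPM in Nac, against 47.8, 41.0 and 12.7 CPM in VTA. Its log2 fold change was 0.35 as labelled (unadjusted p = 0.754) and -2.23 without them (SE 0.20, adjusted p = 0.000801). In both genes Nac 2 held the highest of the 6 values. The 11 thalamic genes had a median of 0.34 as labelled and -0.78 without the 2 libraries. Of them 6 were lower and 0 higher, against 17.4% and 18.5% of all genes. Prkcd, a protein kinase C of thalamic relay neurons, was not among the 6, at 138, 72.2 and 15.6 CPM in Nac, against 16.9, 13.0 and 21.7 CPM in VTA.

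Transmitter genes were mixed. Slc17a6, the vesicular glutamate transporter of midbrain and thalamic neurons, stood at 54.4, 329 and 28.3 CPM in Nac, against 207, 209 and 10.2 CPM in VTA. It was lower without the 2 libraries (log2 fold change -2.34, SE 0.29, adjusted p = 0.00223), and the call was lost with VTA 2 also left out (adjusted p = 0.0512). Slc17a7, its cortical and hippocampal counterpart, stood at 473, 66.6 and 447 CPM in Nac, against 256, 77.6 and 122 CPM in VTA, and was not called (adjusted p = 0.0596). Of 14 cortical and hippocampal excitatory genes, 6 were higher and 2 lower without the 2 libraries (median 0.66, and 0.31 as labelled). The shares of all genes were 18.5% and 17.4%. Tbr1, a factor of cortical excitatory neurons, stood at 56.6, 0.541 and 44.3 CPM in Nac, against 2.41, 2.16 and 17.01 CPM in VTA, so VTA 3 lay below Nac 1 and 3 in it. Gad2, a GABA-making enzyme, stood at 548, 384 and 546 CPM in Nac, against 225, 276 and 536 CPM in VTA, and was higher without the 2 libraries (log2 fold change 1.12, SE 0.13, adjusted p = 0.00182). Of the 10 GABA and glycine neuron genes as a whole, 4 were higher, 3 lower and 3 not called (median 0.19, and 0.31 as labelled), beside the same shares.

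Of 5 acetylcholine genes, Isl1, Chat and Slc5a7 were higher and Ache, acetylcholinesterase, was lower without the 2 libraries (median 1.36, and 0.86 as labelled). Among all genes 18.5% were higher and 17.4% lower. Ache stood at 86.8, 244 and 87.9 CPM in Nac, against 276, 234 and 86.5 CPM in VTA. Slc5a7, the choline transporter, stood at 20.3, 37.8 and 27.2 CPM in Nac, against 8.15, 10.2 and 27.7 CPM in VTA. Nac 2 was the highest library in Slc5a7 and did not sit with VTA 1 and 2. The call for Slc5a7 (log2 fold change 1.36, SE 0.19, adjusted p = 0.00352) was lost with VTA 1 also left out (adjusted p = 0.0536), and that for Chat with VTA 1 or VTA 2 left out (0.0658 and 0.0589). With all WT libraries in the fit neither was called (adjusted p = 0.0605 for Slc5a7 and 0.0534 for Chat).

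Maoa, the gene the series title names, was lower in Nac than in VTA once the 2 libraries were left out. It stood at 45.1, 77.3 and 50.9 CPM in Nac, against 72.4, 77.3 and 52.9 CPM in VTA. As labelled the means were 57.8 ± 17.2 CPM in Nac and 67.5 ± 12.9 CPM in VTA (SD, n = 3 each), with a log2 fold change of -0.24 (SE 0.25, unadjusted p = 0.375). Without Nac 2 and VTA 3 it was -0.65 (SE 0.11, adjusted p = 0.00657), and with VTA 2 also left out it was -0.60 and not called (adjusted p = 0.0622). Exchanged, the means were 49.6 ± 4.01 CPM on the Nac side and 75.7 ± 2.83 CPM on the VTA side. They had no overlap, as in 51.7% of all genes. The SN libraries stood at 64.1 to 79.1 CPM and the STR libraries at 42.4 to 46.8 CPM. Of the other tested monoamine breakdown genes, Aldh1a1, an aldehyde dehydrogenase that dopamine neurons make, was lower, at 86.9, 334 and 66.1 CPM in Nac, against 559, 347 and 47.7 CPM in VTA. Maob, at 44.9, 45.4 and 48.6 CPM in Nac, against 50.2, 59.0 and 45.7 CPM in VTA, was not called (adjusted p = 0.184), nor was Aldh2 (adjusted p = 0.119).

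Many receptor subunits of the main transmitters were higher in Nac without the 2 libraries. Of 14 tested GABA-A receptor subunits, 7 were higher, against 18.5% of all genes, and 2 lower, against 17.4% (median 0.47, and 0.27 as labelled). Gabrd, the delta subunit of receptors outside synapses, stood at 93.2, 8.61 and 78.2 CPM in Nac, against 5.10, 5.73 and 77.2 CPM in VTA (log2 fold change 3.98, SE 0.16, adjusted p = 0.000101). Gabra4, the alpha subunit that pairs with delta in forebrain, stood at 141, 42.5 and 140 CPM in Nac, against 25.2, 36.6 and 135 CPM in VTA.

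Of 17 glutamate receptor subunits, 10 were higher and 2 (Gria4 and Grin2d) lower, against the same shares of all genes (median 0.56, and 0.38 as labelled). Both lower calls were lost with VTA 1 also left out (adjusted p = 0.0531 and 0.125) and with VTA 2 also left out (0.0724 and 0.110), and that for Gria4 with all WT libraries in the fit (0.0532). Grin2b, an NMDA receptor subunit, stood at 235, 76.0 and 216 CPM in Nac, against 52.0, 43.2 and 189 CPM in VTA. Grm5, a metabotropic receptor, stood at 301, 87.8 and 244 CPM in Nac, against 53.1, 69.7 and 242 CPM in VTA. Grin1, the subunit common to NMDA receptors, was not called, at 345, 346 and 291 CPM in Nac, against 316, 311 and 310 CPM in VTA. Nac 2 and VTA 3 lay with the other label's libraries in Grin2b and Grm5, and all 6 libraries were close in Grin1.

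Genes of large axons and fast firing were lower in 12 of 15 and higher in 2 without the 2 libraries, against 17.4% and 18.5% of all genes. Their median log2 fold change was -1.54, and -0.13 as labelled. Vamp1, a synaptic vesicle protein of fast synapses, stood at 63.9, 929 and 83.2 CPM in Nac, against 735, 724 and 63.3 CPM in VTA. Nefh, the heavy neurofilament, stood at 87.1, 709 and 68.0 CPM in Nac, against 554, 515 and 50.2 CPM in VTA. Nac 2 was above VTA 1 and 2 in both. Scn4b, a sodium channel subunit also strong in striatal projection neurons, was higher, at 467, 294 and 475 CPM in Nac, against 216, 162 and 411 CPM in VTA.

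Immediate early genes, which neurons switch on with activity, were higher in 10 of 14 without the 2 libraries, against 18.5% of all genes. Their median log2 fold change was 2.01, and 0.35 as labelled. Egr1 stood at 231, 39.2 and 224 CPM in Nac, against 32.5, 36.7 and 195 CPM in VTA (log2 fold change 2.71, SE 0.12, adjusted p = 0.000103). Junb stood at 68.8, 13.2 and 65.6 CPM in Nac, against 14.7, 15.5 and 71.9 CPM in VTA. Fos was not called (adjusted p = 0.402), at 22.8, 19.3 and 22.1 CPM in Nac, against 19.7, 20.9 and 17.8 CPM in VTA.

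Astrocyte genes divided by gene. Of 14, 4 were higher, against 18.5% of all genes, and 6 lower, against 17.4%, without the 2 libraries (median -0.50, and -0.18 as labelled). Slc1a3, the glutamate transporter GLAST, stood at 1136, 221 and 775 CPM in Nac, against 235, 228 and 865 CPM in VTA (log2 fold change 2.04, SE 0.20, adjusted p = 0.000958). Slc1a2, the glutamate transporter GLT-1, stood at 3731, 1308 and 2875 CPM in Nac, against 1009.8, 1035 and 2956 CPM in VTA. Agt, angiotensinogen, which astrocytes make more of in brainstem and hypothalamus, stood at 35.4, 175 and 30.7 CPM in Nac, against 258, 226 and 47.4 CPM in VTA (log2 fold change -2.88, SE 0.14, adjusted p = 0.000125). With the libraries exchanged, these 3 genes had no overlap. Of the 14 listed genes, 4 had none on the higher side and 7 on the lower, against 25.6% and 26.1% of all genes. The mean level of the astrocyte list stayed between 8.0 and 8.3 log2(CPM + 0.5) in the 6 libraries.

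Of 13 oligodendrocyte genes, 9 were lower and 0 higher without the 2 libraries (median -0.84, and -0.58 as labelled), against 17.4% and 18.5% of all genes. With the libraries exchanged 3 of the 13 had no overlap, all lower on the Nac side, as were 26.1% of all genes. As labelled 4 had no overlap, all lower in Nac, as were 3.29% of all genes. The list's mean level was 8.0, 9.0 and 8.4 in Nac, against 8.9, 9.1 and 9.2 in VTA, in log2(CPM + 0.5). Trf, transferrin, stood at 504, 1451 and 632 CPM in Nac, against 1545, 1663 and 1149.8 CPM in VTA, with VTA 3 below Nac 2. Mbp, myelin basic protein, stood at 3988, 4709 and 5140 CPM in Nac, against 5267, 6832 and 8170 CPM in VTA, and was not called without the 2 libraries (log2 fold change -0.42, SE 0.18, adjusted p = 0.117). As labelled Mbp had no overlap, with a log2 fold change of -0.57 (unadjusted p = 0.0373), and exchanged the difference of means was -0.01. Ndrg1 and Cldn11, both of oligodendrocytes, led the genes in which VTA 3 exceeded Nac 1 and 3. Cldn11 stood at 221, 446 and 303 CPM in Nac, against 424, 504 and 622 CPM in VTA.

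VTA 3 was also the highest of the 6 libraries for the microglial list, at 6.2 log2(CPM + 0.5), with the others from 4.9 to 5.6. Without Nac 2 and VTA 3, 4 of 12 microglial genes (C1qc, Cx3cr1, P2ry12 and Tmem119) were higher in Nac (18.5% of all genes were) and 0 were lower, with a median of 0.43, and of -0.18 as labelled. Exchanged, 12 of 12 were higher on the Nac side with no overlap, as were 25.6% of all genes. With VTA 2 also left out, the calls for C1qc, Cx3cr1 and Tmem119 were lost (adjusted p = 0.140, 0.0681 and 0.137). Those for C1qc and Tmem119 were also lost without VTA 1 (0.0504 and 0.0537), without Nac 3 (0.0716 and 0.0839) or with no filter on low counts (0.0566 and 0.0501), and that for C1qc without Nac 1 (0.0864) or with all WT libraries in the fit (0.181). P2ry12, a purine receptor of resting microglia, stood at 53.6, 24.5 and 53.9 CPM in Nac, against 32.2, 31.2 and 71.1 CPM in VTA (log2 fold change 0.75, SE 0.11, adjusted p = 0.00323, and -0.05 as labelled). The 8 meningeal fibroblast genes were lower in 4 and higher in 0 (median -1.11, and -0.79 as labelled), led in level by Igf2, a growth factor of meninges and choroid plexus, at 25.2, 34.4 and 31.8 CPM in Nac, against 79.4, 56.6 and 39.7 CPM in VTA. Ttr, the transthyretin of choroid plexus, stood at 56.7, 13.6 and 46.3 CPM in Nac, against 185, 157 and 17.5 CPM in VTA, with Nac 2 and VTA 3 the lowest in their groups. Of 10 genes of choroid plexus and ependyma, 1 was higher and 2 lower without the 2 libraries. Of 10 genes of endothelium and pericytes 0 were higher and 3 lower, and of 7 of oligodendrocyte precursors 1 was higher and 3 lower. Beside these counts, and that of the meningeal genes, stand 18.5% higher and 17.4% lower over all genes.

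**Figure D5:**
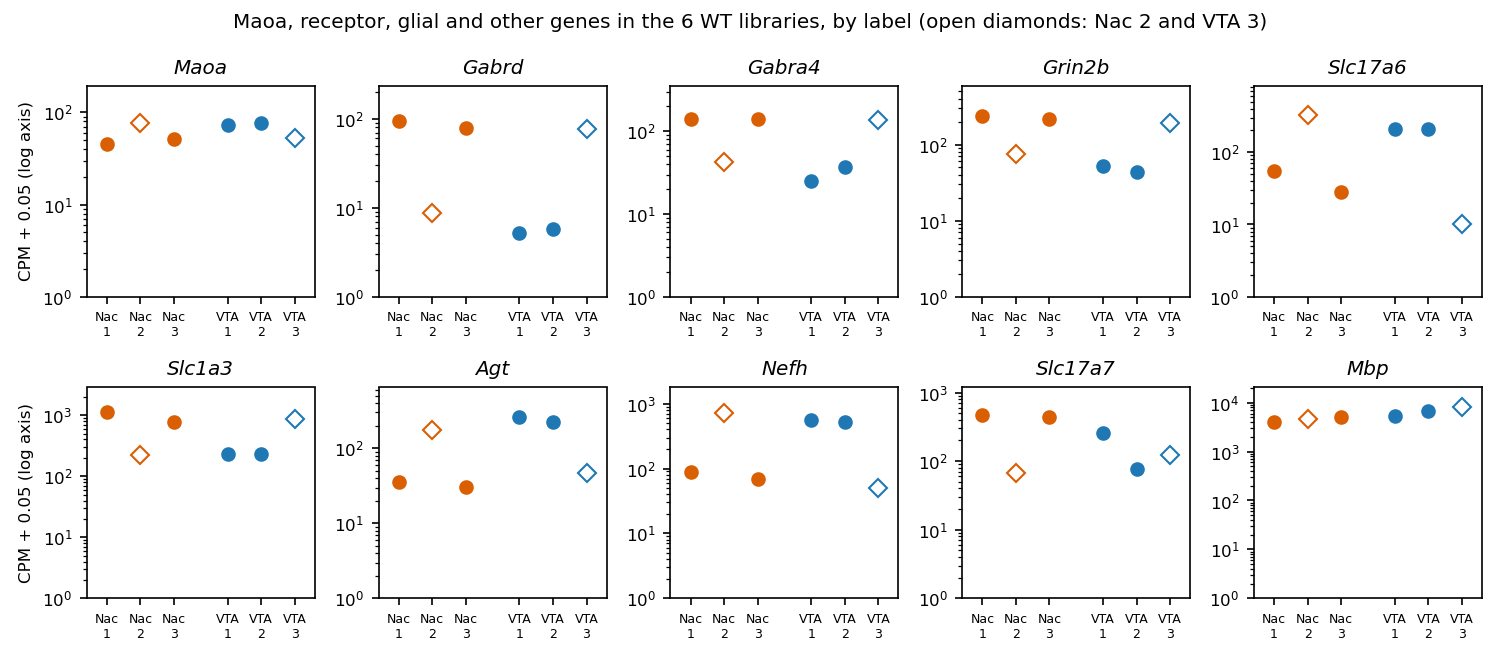
CPM plus 0.05 (log axis) of Maoa and 9 receptor, transporter, glial and axonal genes in the 3 Nac and 3 VTA WT libraries, 1 point a library; open diamonds mark Nac 2 and VTA 3. The 2 diamonds sit with the other label's libraries for Gabrd, Grin2b, Slc1a3, Agt and Nefh. They do not for Mbp, where VTA 3 is highest at 8170 CPM, or for Slc17a7, where VTA 3 lies between VTA 1 and VTA 2.

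In the genes given here as nearest to a call as labelled, Nac 2 and VTA 3 kept to their labels. With 3 libraries against 3, a small p as labelled all but requires this. As labelled 7.56% of all genes had no overlap, and 1.88% had an unadjusted p under 0.05 in edgeR's quasi-likelihood test. Hs6st3, which adds sulfate to heparan sulfate chains, had the smallest unadjusted p (0.00314) and stood at 3.48, 3.14 and 2.27 CPM in Nac, against 0.697, 0.271 and 0.913 CPM in VTA (log2 fold change 2.22). The authors' deposited table gives Hs6st3 a log2 fold change of -2.24, VTA over Nac, at the table's smallest q-value of 0.278, which it shares with Eomes. Gucy1a2, a subunit of the nitric oxide receptor, stood at 61.3, 75.5 and 51.2 CPM in Nac, against 37.0, 37.5 and 39.7 CPM in VTA (log2 fold change 0.70, unadjusted p = 0.00571). Mme, the peptidase neprilysin, stood at 32.7, 19.7 and 27.1 CPM in Nac, against 16.6, 11.8 and 14.3 CPM in VTA. Among genes with lower values in Nac, Fth1, the ferritin heavy chain, stood at 2159, 2157 and 2251 CPM in Nac, against 2846, 3439 and 3549.9 CPM in VTA (log2 fold change -0.60, unadjusted p = 0.00756). Myl9, a myosin light chain of smooth muscle, stood at 10.005, 8.77 and 7.73 CPM in Nac, against 14.8, 15.3 and 13.4 CPM in VTA. None of these passed adjustment as labelled (adjusted p at least 0.912 in edgeR's quasi-likelihood test).

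The KI libraries of the same labels entered the values above only through the common scaling of CPM, and no test. They are not in register with their labels either: on the striatal list KI Nac 1, 2 and 3 stood at 5.2, 5.6 and 9.0 log2(CPM + 0.5), against 5.3, 5.3 and 5.3 in KI VTA 1, 2 and 3, and on the dopamine list at 6.3, 1.0 and 1.5 in KI Nac, against 5.2, 5.6 and 5.4 in KI VTA. KI Nac 2 had Slc17a7 at 1828 CPM, against 38.2 and 238 CPM in KI Nac 1 and 3. Of the 2700 genes called higher in WT without Nac 2 and VTA 3, 93.9% had a higher mean log2(CPM + 0.5) in the 3 KI Nac than in the 3 KI VTA libraries, and of the 2537 called lower, 93.5% had a lower mean. Over all 14584 tested genes the same sign was found in 77.4%. The KI Nac mean mixes 1 library high on the striatal list with 2 that were not. With KI Nac 3 alone against the 3 KI VTA libraries, the 3 shares were 95.1%, 95.2% and 78.4%. Maoa stood at 97.0, 39.2 and 51.4 CPM in KI Nac, against 98.9, 80.2 and 88.4 CPM in KI VTA, so KI Nac 1, which had Slc6a3 at 985 CPM, was within the range of KI VTA. These values carry no test, since the genotypes differ in Maoa by the series title and 2 of the 3 KI Nac libraries lacked the striatal markers.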

How the data were processed

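Library preparation used a SMARTER mRNA-seq kit (per the labels' protocols) and the genome build was GRCm38.p6 (per the submitters' processing notes). For the aligner, the counting tool and the use of strand the entry is "not given in the sources used here", so reads of overlapping or near-identical genes could have been divided in unknown ways. The authors deposited estimated counts per gene, of which 9.93% were not whole, and they were rounded here. The authors' deposited table of comparisons holds log2 fold changes, p-values and q-values for this pair, used only beside the values computed here. A further 264 per-sample columns were not used here.

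CPM are TMM-scaled over the 18 WT and the 6 KI Nac and VTA libraries. Genes were kept by filterByExpr and tested by edgeR 4.0.16's quasi-likelihood test (R 4.3.3, limma 3.58.1) with Benjamini-Hochberg adjustment over all tested genes and a threshold of 0.05; the SE is the size of the log2 fold change over the square root of F. DESeq2 1.42.0 was an alternative. Likeness, list levels and the exchanged arrangement use log2(CPM + 0.5). 3 against 3 libraries cannot give an exact permutation p under 0.1 for a single value, so none is given. The scripts were tested on simulated data. Figures were drawn with matplotlib.

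The comparison, its doubted libraries and the 28 gene lists were chosen with earlier results of these data known. Named were 8 fixed genes, the 4 most abundant tested members of each list, the 12 largest called changes in each direction, the 4 genes of smallest p in each direction as labelled and, for Nac 2 and VTA 3, the 8 genes furthest from the others. Slc6a5, Tcf7l2, Slc18a2, Drd3, Nr4a2, Oprm1, Rasgrp2, Foxa1, Gabrd, Gabra4, Grin2b, Gria4, Grin2d, Nefh, Agt, P2ry12, Fos and Chat, and other list members named only as called or not called, were named after their values were seen. Some genes are not reported here. Sequence was not printed, since no finding turns on one.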

Additional observations from a re-analysis of the deposited data

How the results depend on the processing

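As labelled, edgeR called 0 genes under RLE scaling, with no filter on low counts, with all WT libraries in the fit and without any single library, as did DESeq2; leaving out Nac 2 and VTA 3 together gave 5237. Unadjusted p under 0.05 was most frequent without VTA 3 (2581 genes) and without Nac 2 (1025). Without the 2 libraries, the 5237 calls became 5213 under RLE scaling, 5061 with all WT libraries in the fit, 4834 by DESeq2 and 4309 with no filter, and 1858 to 4119 with 1 more library left out.

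Deviations from the labelled group means correlated between regions at -0.528, 0.661 and 0.657 for the title numbers 1, 2 and 3. Those means include Nac 2 and VTA 3, which set the signs. The values therefore cannot show whether the numbers pair the libraries. With the number as a replicate block the labelled comparison again called 0 genes, and Nac 1, Nac 2 and VTA 1 correlated best with a library of another number.

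Of the genes whose labelled log2 fold change is given, Slc6a5, Tcf7l2 and P2ry12 turned direction. Slc6a5, at 0.48 as labelled, was -6.51 with both libraries out, -1.27 with the replicate block and -5.94 to 1.19 with 1 library out. Tcf7l2, at 0.35, was -2.23, -0.40 and -1.85 to 0.84. P2ry12, at -0.05, was 0.75 with both libraries out and -0.26 to 0.47 with 1 library out. The cause was not tested. Of the other values recomputed for named genes, 147 as labelled and 528 without the 2 libraries kept their direction and their side of the threshold, 52 without the 2 libraries kept direction and lost the call, and 10 as labelled and 4 without them gained one.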
